A study of Mus musculus with 58 samples.

Results

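Line 20b is a transgenic mouse line that makes RNA with an expanded CUG repeat in skeletal muscle, and Mbnl1-null mice lack the splicing regulator that such RNA binds. Both were profiled against wild-type mice of their own experiment, and the account below sets the line 20b effect (log2 mean of line 20b minus wild type) against the Mbnl1-null effect (log2 mean of Mbnl1-null minus wild type) in quadriceps muscle. All mice were male and on the FVB strain, and none had a treatment beyond the genetic change each was born with. Experiment 1 held 6 wild-type mice and 6 line 20b mice aged 6 months, plus 6 mice of another CUGexp line, line 41, which enters here through the estimate of spread and as values beside those of line 20b. Experiment 3 held 5 wild-type and 5 Mbnl1-null mice aged 3 months. The members are the 34 arrays of the 22 mice in the 4 groups compared, of 58 arrays and 34 mice in the series. A mouse of experiment 1 was run on the arrays 430A and 430B, and a mouse of experiment 3 on the single array 430 2.0, so the comparison covers the 45037 probe sets that both systems carry. Of these, 16067 reached an intensity of 32 (log2 of 5) on at least 6 mice of experiment 1 and at least 5 of experiment 3 and were tested. They give 8954 genes, each represented by its brightest probe set.

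Muscleblind-like 1 (MBNL1) is an RNA-binding protein that steers alternative splicing of many muscle transcripts toward their adult forms. In myotonic dystrophy, RNA with expanded CUG repeats collects in the nucleus and binds muscleblind proteins, so that less MBNL1 is free to act. A repeat-expressing mouse and an Mbnl1 knockout are therefore 2 models of the same step, and genes that respond in only 1 of them are of interest. Line 20b carries a human skeletal actin transgene with the repeat, which is active in skeletal muscle, and it is 1 transgenic line, so an effect of where the transgene sits cannot be told apart from an effect of the repeat unless line 41 is read beside it. The knockout is constitutive and affects every cell type of the muscle. Age, array system and normalisation all change with the experiment, so they cannot be told apart from the genetic model in any difference between the 2 effects.

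Skeletal muscle was the source by its markers: 12 of 12 skeletal muscle genes were tested, and their mean log2 level ran from 14.71 to 15.43 over the mice of all 4 groups. The medians of the array intensities were 404 to 433 on 430A, 30.2 to 34.4 on 430B and 9.56 to 11.6 on 430 2.0, so levels are compared only within an experiment. Correlations between mice of one group across the tested probe sets ran from 0.967 to 0.992. Wild-type mice 1 and 2 of experiment 1 stood apart from the other wild-type mice, with the highest adipocyte marker means (13.07 and 13.59 against 11.18 to 11.71) and the lowest slow fibre means (11.15 and 9.77 against 12.26 to 13.05). Many results are therefore also given without both, and sizes given only with them can still rest partly on them. The labels name the animals of a group by number only, so p-values measure the spread between these numbered mice. Muscle was profiled in bulk, so fewer cells of a type and less RNA per cell cannot be told apart.

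The effects of the repeat and of Mbnl1 loss ran mostly the same way. Of the 1001 genes called in both (adjusted p under 0.05 in each limma fit), 987 changed in the same direction, among them the calcium pump regulator Sln, the deubiquitinase Uchl1 and the potassium channel subunit Kcnab1, and 14 changed in opposite directions. In line 20b 1143 genes rose (12.8%) and 1442 fell (16.1%), 28.9% of 8954 together. In Mbnl1-null 719 rose (8.03%) and 745 fell (8.32%), 16.4% together. Over single probe sets the shares called were 29.0% and 16.5%, and 1.72% for the difference. The 987 shared genes are 38.2% of those called in line 20b and 67.4% of those called in Mbnl1-null. Across the 8954 genes the effects correlated with Pearson's r of 0.651 and Spearman's rho of 0.588, a description in which genes are not independent replicates.

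A difference between the effects was called for 180 genes (2.01%), with the line 20b effect above the Mbnl1-null effect in 66 (0.737%) and below it in 114 (1.27%). The difference of 91 of these genes (36 above, 55 below) was at least 2-fold. The median SE of the difference was 0.171 on the log2 scale, made of 0.105 for line 20b and 0.127 for Mbnl1-null. Among 272 genes changed at least 2-fold in line 20b, 245 had the same direction in Mbnl1-null, 43 had a called difference, and 78 had a 95% interval of the difference that lay within 2-fold either way. The remaining 151 could not be placed: their intervals reached past 2-fold but the test did not pass. Among 285 genes changed at least 2-fold in Mbnl1-null, 257 had the same direction in line 20b, 50 had a called difference, 94 had an interval within 2-fold and 144 could not be placed. By direction the 180 genes fall into 95 where the line 20b effect was called and further from 0, 63 where the Mbnl1-null effect was called and further from 0, 14 called in opposite directions, and 8 others.

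**Figure D1:**
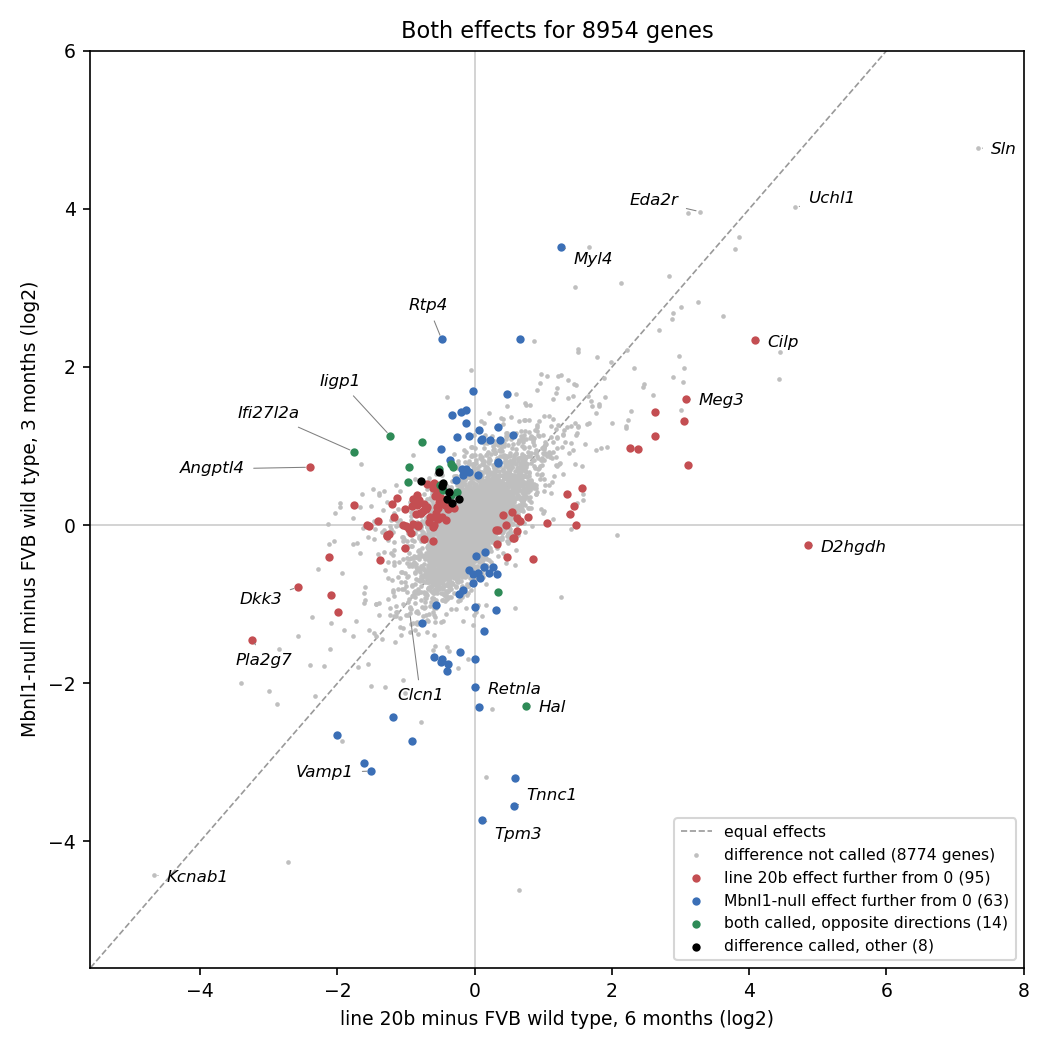
Each point is 1 of 8954 genes, with the line 20b effect (log2, 6-month mice) on the horizontal axis and the Mbnl1-null effect (log2, 3-month mice) on the vertical axis; the dashed line marks equal effects and colours mark the 180 genes with a called difference. The effects correlated with an r of 0.651. Kcnab1 (-4.68 and -4.43, with null mice near the floor of 5) lies near the dashed line. Sln (7.34 and 4.77) lies below it, with a difference that was not called. D2hgdh, Tpm3, Tnnc1, Rtp4 and Ifi27l2a lie far from the line.

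The genes tied to the models came first. Mbnl1 itself had a log2 intensity of 14.52 to 14.68 (median 14.61) in the 6 wild-type mice of experiment 1 and 14.44 to 14.69 (median 14.59) in line 20b. It was 13.88, 13.82, 13.77, 13.78 and 13.81 in the 5 wild-type mice of experiment 3 and 13.20, 12.90, 13.18, 13.05 and 13.09 in Mbnl1-null. The line 20b groups overlap and the Mbnl1-null groups do not: the effects were -0.02 (SE 0.05, adjusted p = 0.815) and -0.73 (SE 0.06, adjusted p = 4.69e-05), and the difference was 0.71 (SE 0.08, adjusted p = 1.4e-05). Where the probes lie relative to the deleted part is not known here, so the signal left in the null mice checks nothing.

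Clcn1, the muscle chloride channel whose mis-splicing causes myotonia, fell in both models by similar amounts. It ran from 12.02 to 12.62 (median 12.29) in wild type and from 11.17 to 11.53 (median 11.32) in line 20b. In experiment 3 it was 9.94, 10.18, 10.43, 10.11 and 10.45 in wild type and 8.89, 9.19, 9.29, 9.38 and 8.83 in Mbnl1-null. No mutant mouse reached a wild-type mouse in either experiment. The effects were -0.95 (SE 0.10) and -1.11 (SE 0.14), and the difference of 0.16 had a 95% interval of -0.19 to 0.51 (adjusted p = 0.749). Mbnl2, the paralogue that can stand in for MBNL1, differed by -0.02 (interval -0.27 to 0.23), with effects of -0.25 (adjusted p = 0.072) and -0.23 (adjusted p = 0.0421). Other Mbnl2 probe sets had wider intervals, with differences of 0.17, 0.14 and 0.38 and none called. The last had effects of 0.295 in line 20b and -0.087 in Mbnl1-null (interval of the difference -0.007 to 0.77). Acta1, the endogenous skeletal actin gene, had effects of -0.08 and 0.00 (interval of the difference -0.29 to 0.13).

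The largest shared changes were far bigger than those of Clcn1. Sln encodes sarcolipin, a peptide that slows calcium uptake into the sarcoplasmic reticulum, and it ran from 2.18 to 7.93 (median 6.60) in 6-month wild type and from 12.95 to 13.94 (median 13.34) in line 20b. It was 7.94, 6.49, 7.42, 7.03 and 5.44 in 3-month wild type and 14.37, 11.02, 10.90, 10.89 and 11.02 in Mbnl1-null. Both mutant groups lie wholly above their wild types, with effects of 7.34 (SE 0.64) and 4.77 (SE 0.68). The difference of 2.57 (SE 0.93) did not pass (adjusted p = 0.187; 1.46 without wild-type mice 1 and 2), and its interval of 0.65 to 4.48 is wide. Kcnab1, a subunit that speeds inactivation of potassium channels, fell in both models, with effects of -4.68 in line 20b and -4.43 in Mbnl1-null (difference -0.25, interval -1.08 to 0.59). Its null mice had 5.11, 4.86, 5.86, 5.72 and 5.36, near the floor of 5. A larger fall in Mbnl1-null could therefore hardly be measured, and equal effects are not established. Another Kcnab1 probe set had means of 11.875 and 6.622 in the 6-month and 3-month wild types and of 3.595 in line 20b and 2.356 in Mbnl1-null; both mutant means lie under the floor of 5, so the sizes of its falls are not compared.

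Other genes with large effects the same way in both were Uchl1 (4.67 and 4.02), the sodium pump beta subunit relative Atp1b4 (3.86 and 3.65), the calcium-dependent membrane-binding protein Cpne2 (3.79 and 3.49), the ectodysplasin receptor Eda2r (3.28 and 3.96) and Lrp2bp (2.83 and 3.16). Their differences ran from -0.68 (Eda2r, interval -1.55 to 0.19) to 0.65 (Uchl1, interval -0.58 to 1.88). Uchl1 had a median of 4.08 in 3-month wild type, so its Mbnl1-null effect and its difference rest partly on values under the floor of 5. Rrad, a small GTPase that restrains calcium channels, rose by 3.10 in line 20b, and all 5 wild-type mice of experiment 3 were under an intensity of 32, so its rise in Mbnl1-null is given as at least 5.07-fold.

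In 29 genes the line 20b effect was further from 0 and above the Mbnl1-null effect. D2hgdh, named for a mitochondrial dehydrogenase of 2-hydroxyglutarate, led them: it ran from 9.51 to 10.09 (median 9.87) in wild type and from 14.29 to 15.21 (median 14.59) in line 20b. In experiment 3 it was 9.26, 8.99, 8.66, 9.15 and 8.60 in wild type and 8.35, 8.50, 8.95, 8.87 and 8.71 in Mbnl1-null, where the groups overlap. The effects were 4.86 (SE 0.14, 29-fold) and -0.26 (SE 0.16, adjusted p = 0.304), a difference of 5.11 (SE 0.21, adjusted p = 4.57e-15). Line 41 also lay wholly above the same wild-type mice at this probe set (14.38 to 14.97, an effect of 4.97). The gene's other probe set did not share the rise, with effects of -0.11 (SE 0.10) and -0.36 (SE 0.12) and a difference of 0.25 (adjusted p = 0.53), so the value belongs to 1 probe set and not to the gene as a whole.

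Cilp, a cartilage and tendon matrix protein, rose in both models and further in line 20b. It ran from 8.28 to 9.34 (median 8.66) in wild type and from 12.38 to 13.39 (median 12.75) in line 20b, and was 9.63, 9.31, 9.75, 10.02 and 9.44 in 3-month wild type and 11.97, 12.30, 12.01, 12.18 and 11.38 in Mbnl1-null. Neither pair of groups overlaps, and the difference was 1.74 (SE 0.29, adjusted p = 0.000899). Car14, a membrane-bound carbonic anhydrase, rose by 1.47 (SE 0.21) in line 20b and had an effect of 0.00 (SE 0.18) in Mbnl1-null, a difference of 1.47 (adjusted p = 0.00408). Its line 20b mice (11.62 to 12.40) all lay above wild type (9.56 to 11.07), and its Mbnl1-null mice (9.61, 9.86, 9.61, 10.18 and 10.03) lay among their wild types (9.59, 10.37, 9.43, 10.09 and 9.81).

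The putative scaffold Rhpn2 (3.10 and 0.77, difference 2.34), the glycosyltransferase Galnt7 (2.63 and 1.13, difference 1.501) and the tubulin-binding protein Tppp3, a marker of tendon cells (2.27 and 0.98, difference 1.29), rose in both models and further in line 20b. These calls, like those of D2hgdh, Cilp and Car14, held with any single mouse left out. Without wild-type mice 1 and 2 the differences were 1.92 for Rhpn2 (adjusted p = 0.0245), 1.62 for Galnt7 (0.0102) and 1.04 for Tppp3 (0.00709). Cilp and Tppp3 do not stand for tendon genes at large. They belong to a list of 17 tested fibroblast and tendon markers, of which 14 had differences below 0 and 3 above. The list's medians were -0.09 in line 20b and 0.32 in Mbnl1-null. The calls for the adhesion molecule Nectin3 (difference 1.73) and Fbxl16 (1.42) were lost in 16 and 7 of the 22 fits that leave out 1 mouse, with adjusted p of up to 0.102 and 0.0638, and that of Nectin3 also with wild-type mice 1 and 2 left out (adjusted p = 0.111). Meg3, an imprinted non-coding RNA that is high in embryonic muscle, ran from 9.30 to 9.75 in wild type and from 11.62 to 13.31 in line 20b, with effects of 3.08 (SE 0.30) and 1.59 (SE 0.25). Its difference of 1.49 (adjusted p = 0.0411) was lost in 15 of the 22 fits (adjusted p up to 0.0795) and with wild-type mice 1 and 2 left out (0.0814), and 3 of its 4 other probe sets missed the threshold (adjusted p of 0.0596 to 0.14). In line 41 Meg3 had an effect of 0.16 (SE 0.30) against the same wild types.

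In 66 genes the line 20b effect was further from 0 and below the Mbnl1-null effect. Pla2g7, the secreted phospholipase that degrades platelet-activating factor, fell in both models: it ran from 11.05 to 11.82 (median 11.33) in wild type and from 7.60 to 8.57 (median 8.28) in line 20b, and was 9.05, 8.69, 8.10, 7.84 and 8.02 in 3-month wild type and 7.44, 6.44, 6.75, 7.25 and 6.57 in Mbnl1-null. Neither pair of groups overlaps, the effects were -3.24 (SE 0.21) and -1.45 (SE 0.26), and the difference was -1.79 (SE 0.34, adjusted p = 0.00516). Apcdd1, a membrane inhibitor of Wnt signalling, fell by 1.54 in line 20b and had an effect of -0.01 (SE 0.19) in Mbnl1-null (difference -1.52, adjusted p = 0.0089). Without wild-type mice 1 and 2 the Apcdd1 difference was -1.10 (adjusted p = 0.0437). Another of its probe sets gave a difference of -3.22 (adjusted p = 0.000264), and one more missed the threshold (-1.46, adjusted p = 0.0708).

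Dkk3, a secreted member of the Dickkopf family, fell by 2.58 in line 20b against an effect of -0.79 (SE 0.32, adjusted p = 0.12) in Mbnl1-null. Its difference of -1.79 (adjusted p = 0.0212) was lost without wild-type mouse 3 or 5 or Mbnl1-null mouse 3 of experiment 3 (adjusted p up to 0.0564) and with wild-type mice 1 and 2 left out (-1.55, adjusted p = 0.0597). Its other probe set had means of 8.326 in 6-month wild type and 3.642 in line 20b, and of 6.416 in 3-month wild type and 5.533 in Mbnl1-null. That probe set also fell further in line 20b, but the line 20b mean lies under the floor of 5, so no size is given for the difference. The remaining 5 leading genes had calls that leaving out 1 mouse or both of wild-type mice 1 and 2 ended. They were the lipase inhibitor Angptl4 (-2.41 and 0.73), the potassium channel Kcnk2 (-2.13 and -0.40), the adipocyte hormone Adipoq (-1.75 and 0.25), the membrane protein Tmem100 (-1.57 and 0.00) and the endosomal sorting protein Snx10 (-1.21 and 0.27). Angptl4, Kcnk2 and Snx10 had means of 5.01, 5.31 and 5.64 in 3-month wild type, near the floor of 5. A fall of Angptl4, Kcnk2 or Snx10 in Mbnl1-null could therefore hardly be measured. Without wild-type mice 1 and 2 the differences were -2.02 for Angptl4 (adjusted p = 0.2), -1.10 for Kcnk2 (0.187), -1.22 for Adipoq (0.151), -1.60 for Tmem100 (0.0597) and -1.02 for Snx10 (0.167). In line 41 none of these 5 genes was called, with effects from -1.07 (Adipoq, adjusted p = 0.123) to -0.22 (Tmem100, adjusted p = 0.576).

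**Figure D2:**
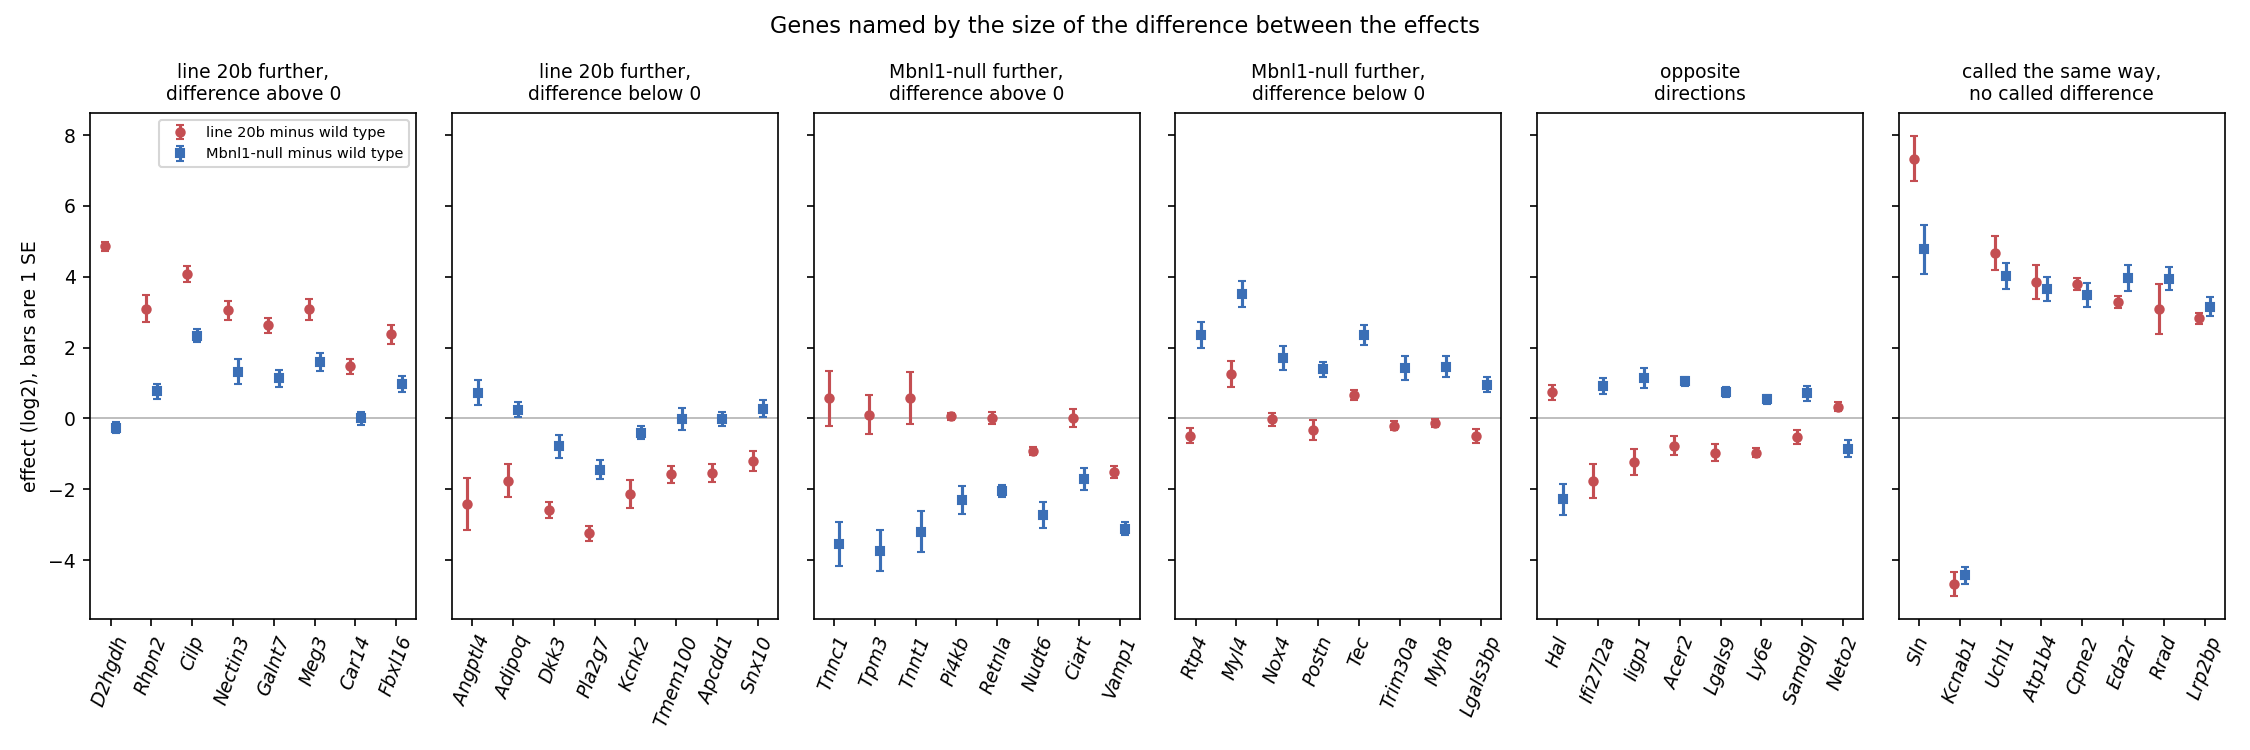
Line 20b effects (circles) and Mbnl1-null effects (squares), log2 with bars of 1 SE, for the 8 genes of each kind with the largest differences and the 8 with the largest shared effects. In the first panel D2hgdh stands at 4.86 and -0.26, in the third Tpm3 at 0.11 and -3.73, and in the opposite panel the interferon-type genes lie below 0 in line 20b and above 0 in Mbnl1-null.

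Genes of vessels were lower in line 20b and not in Mbnl1-null. Of 24 tested endothelial and mural markers, 19 fell and none rose in line 20b, 1 rose (Cspg4) and none fell in Mbnl1-null, and all 24 differences lay below 0, 7 of them called. Over all 8954 genes 4653 differences lay below 0 and 4301 above, the background for this and later counts of signs. The list's median was -0.48 in line 20b and 0.07 in Mbnl1-null, beside -0.03 and -0.01 over all genes. Mean marker level per mouse ran from 11.16 to 11.39 in wild type and from 10.61 to 10.98 in line 20b, which do not overlap, while 3-month wild type (8.86 to 9.001) and Mbnl1-null (8.76 to 9.30) do overlap. Pecam1, an adhesion molecule of endothelial junctions, ran from 10.99 to 11.51 (median 11.12) in wild type and from 10.01 to 10.65 (median 10.46) in line 20b. It was 9.32, 9.28, 9.15, 9.29 and 9.24 in 3-month wild type and 9.38, 9.52, 9.70, 9.31 and 9.71 in Mbnl1-null.

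Pecam1 thus fell without overlap in line 20b (-0.73, SE 0.14) and overlapped in Mbnl1-null (0.27, SE 0.10, adjusted p = 0.0836), a difference of -1.0 (SE 0.17, adjusted p = 0.00109; -1.05 and adjusted p = 0.0033 without wild-type mice 1 and 2). The angiopoietin receptor Tek (-0.82 and -0.01, adjusted p of the difference 0.0437) and the junction cadherin Cdh5 (-0.71 and 0.20, adjusted p = 0.0484) were close to the threshold, and their calls were lost in 13 and 17 of the 22 fits that leave out 1 mouse. The other called markers were Cav1, Myh11, Notch3 and Ptprb. Without wild-type mice 1 and 2, 14 of the 24 fell in line 20b, 3 differences were called, and all 24 lay below 0. A shift of array medians gave 15 falls and 1 called difference with all 24 below 0. Leaving out 1 mouse gave between 1 and 8 called differences, the fewest without 3-month wild-type mouse 3 or 5 or Mbnl1-null mouse 3.

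Adipocyte markers moved with the 2 wild-type mice that stood apart. Of 15 tested, 6 fell in line 20b and 1 fell in Mbnl1-null, with list medians of -1.11 and 0.00 and 1 called difference (Adipoq). Their mean level ran from 11.18 to 13.59 in wild type and from 10.56 to 11.28 in line 20b, and from 8.57 to 9.89 and from 8.23 to 9.65 in experiment 3. Without wild-type mice 1 and 2 the line 20b median was -0.60, 2 markers fell and no difference was called. Adipoq is a hormone of adipocytes, and the part of fat cells in the lower level of Angptl4, Snx10 and Kcnk2 in line 20b was not tested.

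In 35 genes the Mbnl1-null effect was further from 0 and the line 20b effect above it, and slow-fibre sarcomere genes led them. Tpm3, slow tropomyosin, was 12.40, 12.20, 12.20, 11.55 and 11.97 in 3-month wild type and 7.43, 9.88, 9.91, 6.54 and 7.91 in Mbnl1-null, where every null mouse lies below every wild type. It ran from 10.49 to 14.24 (median 13.74) in 6-month wild type and from 11.90 to 13.83 (median 13.27) in line 20b, which overlap. The effects were -3.73 (SE 0.58, 13.3-fold lower) and 0.11 (SE 0.54), and the difference was 3.84 (SE 0.79, adjusted p = 0.0089; 2.83 and adjusted p = 0.0468 without wild-type mice 1 and 2). Of 4 other Tpm3 probe sets 1 gave a like difference (3.82, adjusted p = 0.00778), and the other 3 gave -0.13 to -0.37 with none called, so the fall belongs to 2 of the 5 probe sets.

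Tnnc1, the calcium-binding troponin of slow and heart muscle, was 12.04, 12.01, 11.81, 11.39 and 11.76 in 3-month wild type and 6.99, 9.75, 9.81, 6.24 and 8.48 in Mbnl1-null. The effects of Tnnc1 were -3.55 (SE 0.62) and, in line 20b, 0.57 (SE 0.78), with a difference of 4.13 (adjusted p = 0.026). The slow troponin T gene Tnnt1 gave -3.20 (SE 0.59), 0.58 (SE 0.73) and 3.78 (adjusted p = 0.0322). Both calls were lost without wild-type mice 1 and 2 of experiment 1, at differences of 2.69 (Tnnc1, adjusted p = 0.0763) and 2.42 (Tnnt1, adjusted p = 0.0998). Those 2 mice had the lowest slow fibre means of their group.

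The slow fibre list split within Mbnl1-null. Of 18 tested members 7 fell there (Myh7, Tpm3, Tnnc1, Tnnt1, Myl2, Tnni1 and Atp2a2, all parts of the slow contractile or calcium apparatus) and 5 rose (Sln, Smtnl1, Fhl1, Mybpc1 and Mb). The same 5 rose in line 20b, where no member fell. The slow myosin heavy chain gene Myh7 had the largest effect, -4.61 (SE 1.25) against 0.64 (SE 0.79), but its difference of 5.26 (interval 2.18 to 8.33) did not pass (adjusted p = 0.0784). The median was 0.59 in line 20b and 0.01 in Mbnl1-null, and without wild-type mice 1 and 2 the line 20b median turned to -0.29, with 2 members lower and 1 called difference in place of 3. Null mice 1 and 4 had list means of 10.20 and 9.97, below the other 3 (11.57 to 11.76), while 3-month wild types ran from 11.34 to 11.85.

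**Figure D3:**
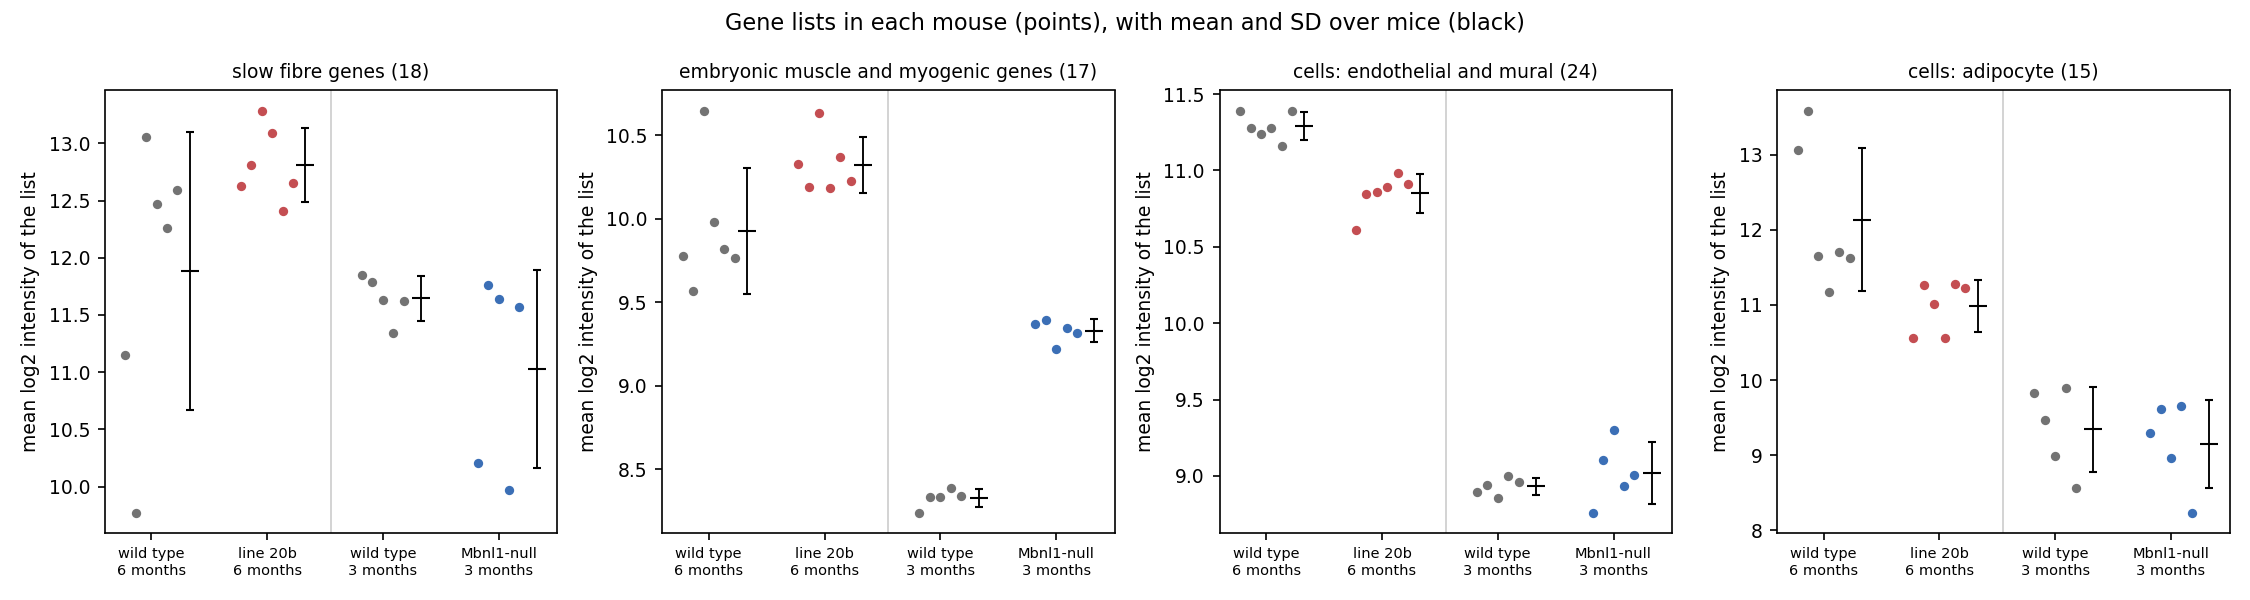
Mean log2 intensity of 4 gene lists in each mouse (points), with the mean and SD over mice in black; the vertical line parts the 6-month from the 3-month experiment, whose levels are not comparable. Slow fibre means of 2 wild-type mice (11.15 and 9.77) and 2 null mice (10.20 and 9.97) lie low, endothelial means fall without overlap only between 6-month wild type and line 20b, and embryonic means rise without overlap only between 3-month wild type and Mbnl1-null.

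Outside the sarcomere, and apart from Mbnl1 itself, Retnla, Vamp1 and Pi4kb had called differences of this kind that held with any single mouse left out. Retnla, a secreted resistin-like protein of fat tissue and macrophages, was 10.84, 11.00, 11.17, 11.01 and 10.81 in 3-month wild type and 9.19, 8.97, 9.15, 8.20 and 9.05 in Mbnl1-null, and ran from 12.99 to 14.01 in 6-month wild type and from 13.19 to 13.60 in line 20b. The null mice lie wholly below and the line 20b mice lie among their wild types, with effects of -2.05 (SE 0.17) and 0.01 (SE 0.17) and a difference of 2.06 (SE 0.24, adjusted p = 8.69e-06). Vamp1, a synaptic vesicle fusion protein, fell in both: it was 8.37, 8.25, 8.39, 8.60 and 8.83 in wild type and 4.71, 5.55, 5.78, 5.49 and 5.36 in Mbnl1-null, and lay between 10.49 and 11.20 in 6-month wild type and between 8.69 and 9.76 in line 20b. The effects were -3.11 (SE 0.19) and -1.51 (SE 0.18), and the difference was 1.60 (SE 0.26, adjusted p = 0.00105). The lipid kinase gene Pi4kb had effects of -2.30 (SE 0.40) in Mbnl1-null and 0.06 (SE 0.10) in line 20b. The adjusted p of its difference was 0.0121, and up to 0.0416 with 1 mouse left out. Its null mice had 6.10, 5.38, 4.80, 4.54 and 3.85, so the size of its fall rests partly on values under the intensity of 32 (log2 of 5).

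The calls of Nudt6, antisense to a fibroblast growth factor gene (-2.73 in Mbnl1-null and -0.91 in line 20b), and Ciart, a repressor of the circadian clock (-1.70 and 0.01), were less firm. Leaving out 1 mouse ended them in 7 and 4 of 22 fits, with adjusted p up to 0.0805 and 0.0673, and another Nudt6 probe set did not share the fall (0.19 in Mbnl1-null). Ciart was 1 of 2 clock genes with a called difference; the other, Per2, had effects of -0.61 and 0.32, and its call was lost in 18 fits and with wild-type mice 1 and 2 left out (adjusted p = 0.0597). Over the 17 tested clock genes 3 fell in Mbnl1-null, and in line 20b 1 rose and 2 fell.

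In 28 genes the Mbnl1-null effect was further from 0 and the line 20b effect below it, among them genes of developing and repairing muscle. Myl4, the embryonic myosin light chain, was 6.08, 4.50, 4.50, 5.54 and 4.96 in 3-month wild type and 9.73, 7.98, 8.47, 8.41 and 8.58 in Mbnl1-null. It ran from 6.39 to 9.61 (median 8.50) in 6-month wild type and from 9.21 to 9.78 (median 9.67) in line 20b. The null mice lie wholly above, the line 20b mice overlap, and the effects were 3.52 (SE 0.37) and 1.26 (SE 0.37), a difference of -2.26 (SE 0.52, adjusted p = 0.021). Myh8, the perinatal myosin heavy chain, was 7.08, 6.80, 7.08, 6.98 and 7.60 in wild type and 9.68, 8.59, 8.02, 8.59 and 7.97 in Mbnl1-null, and overlapped in experiment 1 (7.24 to 7.78 against 7.14 to 7.66). Its effects were 1.46 (SE 0.29) and -0.13 (SE 0.11), and the difference of -1.59 (adjusted p = 0.0197) was lost without 3-month wild-type mouse 2 or 3 (adjusted p up to 0.0522).

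Over the list of 17 tested embryonic muscle and myogenic genes, 10 rose and none fell in Mbnl1-null, and 6 rose and 3 fell in line 20b, where Meg3 rose further than in Mbnl1-null. The list's mean per mouse did not overlap between 3-month groups. Tnnt2, the heart and embryonic troponin T, changed in opposite directions (-0.32 and 0.74; difference -1.06, adjusted p = 0.0252). Ncam1 and Nes, which mark regenerating or denervated fibres, rose in both (1.14 and 1.60 for Ncam1; 0.60 and 1.66 for Nes) with no called difference.

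Some collagen and matrix genes rose in Mbnl1-null. Of 24 tested collagen and matrix genes 8 rose and none fell in Mbnl1-null, against 3 and 3 in line 20b; 22 differences lay below 0 and 3 were called, with list medians of 0.42 and 0.00. With wild-type mice 1 and 2 left out, 21 lay below 0 and 1 was called. Postn, a matrix protein of wound repair, was 8.82, 9.12, 9.80, 9.66 and 9.40 in 3-month wild type and 10.96, 11.22, 10.79, 10.48 and 10.28 in Mbnl1-null, and ran from 10.63 to 12.72 and from 10.34 to 11.41 in 6-month wild type and line 20b. The null mice lie wholly above (1.39, SE 0.21) and the line 20b mice overlap (-0.33, SE 0.29), with a difference of -1.71 (adjusted p = 0.00937; -1.18 and adjusted p = 0.0354 without wild-type mice 1 and 2). Col4a1, a basement membrane collagen (0.64 and -0.18), and the cross-linking enzyme Lox (0.67, adjusted p = 0.076, and -0.52) had called differences that were lost in 10 and 11 of the 22 fits and with wild-type mice 1 and 2 left out (adjusted p of 0.104 and 0.0535). Another Col4a1 probe set rose in Mbnl1-null (0.56) and fell in line 20b (-0.39), with a called difference (-0.95, adjusted p = 0.0172). Another Lox probe set missed the threshold (-1.27, adjusted p = 0.0591). Fibroblast and tendon markers rose in 7 of 17 genes and fell in 2 in Mbnl1-null, against 4 and 3 in line 20b, and macrophage markers rose in 3 of 13 and fell in 1, against 0 and 2; the part of such cells in the matrix genes was not tested.

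The other leading genes that rose in Mbnl1-null were the oxidase Nox4 (1.70, against -0.02 in line 20b), the kinase Tec and 3 interferon-type genes described next. The Nox4 call was lost in 8 of the 22 fits (adjusted p up to 0.0738). All 5 wild-type mice of experiment 3 had Tec under an intensity of 32, so its rise in Mbnl1-null is only bounded, at 1.76-fold or more, against 1.58-fold in line 20b, and its called difference rests on values under that floor.

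Several genes that interferons induce, among them Ly6e, Iigp1 and Ifi27l2a, and 3 class I antigen presentation genes fell in line 20b, and some interferon-induced genes, among them Rtp4 and Ifit2, rose in Mbnl1-null. Of the 8 genes named for opposite directions, 5 are of this kind or are tied to immune cells. Ly6e, an interferon-inducible surface protein, ran from 13.16 to 13.81 (median 13.47) in 6-month wild type and from 12.18 to 12.74 (median 12.57) in line 20b, which do not overlap. It was 11.60, 12.27, 11.77, 12.09 and 11.90 in 3-month wild type and 12.78, 12.44, 12.45, 12.26 and 12.40 in Mbnl1-null, which overlap by 1 mouse. Its effects were -0.97 (SE 0.13) and 0.54 (SE 0.13, adjusted p = 0.0168), and the difference was -1.51 (SE 0.18, adjusted p = 1.4e-05).

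Lgals9, a galectin that interferon induces, lay between 9.04 and 9.89 in 6-month wild type and between 7.53 and 9.17 in line 20b, and was 7.67, 8.19, 7.73, 7.94 and 8.15 in 3-month wild type and 8.86, 8.58, 8.91, 8.39 and 8.62 in Mbnl1-null. The null mice lie wholly above and the line 20b mice overlap slightly, with effects of -0.96 (SE 0.23) and 0.74 (SE 0.14) and a difference of -1.70 (adjusted p = 0.000818). The interferon-inducible GTPase Iigp1 had effects of -1.24 (SE 0.37) and 1.13 (SE 0.29; difference -2.37, adjusted p = 0.00516), and both of its comparisons overlap. Ifi27l2a, an interferon-induced membrane protein, ran from 12.89 to 16.09 in wild type and from 11.97 to 12.85 in line 20b, and its difference was -2.69 (adjusted p = 0.0075). The 2 highest values were wild-type mice 1 and 2 (15.70 and 16.09), and without them the difference was -1.81 (adjusted p = 0.0146). In line 41 the effects were -0.43 for Ly6e (adjusted p = 0.0263), -1.10 for Iigp1 (0.0492), -0.54 for Lgals9 (0.119) and -1.07 for Ifi27l2a (0.144). Samd9l (-0.52 and 0.71) lost its called difference without wild-type mice 1 and 2 (difference -0.999, adjusted p = 0.0863).

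Rtp4, another interferon-induced gene, carried the largest difference of the kind with a rise in Mbnl1-null. It was 4.03, 5.64, 5.05, 6.46 and 5.37 in 3-month wild type and 7.39, 7.87, 7.86, 8.03 and 7.15 in Mbnl1-null, and ran from 6.68 to 7.86 in 6-month wild type and from 6.25 to 7.73 in line 20b. The null mice lie wholly above (2.35, SE 0.37), line 20b overlaps (-0.48, SE 0.22, adjusted p = 0.11), and the difference was -2.84 (SE 0.43, adjusted p = 0.00141). Trim30a (1.43 and -0.20) and Lgals3bp (0.96 and -0.49) had differences of -1.63 and -1.45, the first lost in 6 of 22 fits that leave out 1 mouse and with wild-type mice 1 and 2 left out (adjusted p = 0.0535), and the second in none of these.

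The class I antigen presentation genes differed through line 20b. B2m, the light chain of class I molecules, ran from 14.04 to 15.24 in wild type and from 13.57 to 13.95 in line 20b, and was 12.71, 13.26, 12.89, 12.83 and 12.38 in 3-month wild type and 13.31, 13.12, 13.06, 13.26 and 12.59 in Mbnl1-null. The line 20b mice lie wholly below (-0.85, SE 0.17) and the null mice overlap (0.25, SE 0.17, adjusted p = 0.338), with a difference of -1.10 (adjusted p = 0.012). The heavy chains H2-D1 (-0.75 and 0.18, difference -0.93, adjusted p = 0.00455) and H2-K1 (-0.78 and 0.16, difference -0.93, adjusted p = 0.0185) followed the same pattern. In line 41, against the same wild types, B2m had an effect of -0.71 (adjusted p = 0.00798), H2-D1 of -0.34 (0.132) and H2-K1 of -0.32 (0.173). Class I genes are near copies of one another, and other probe sets of H2-K1 gave -0.41 to -1.18 with adjusted p of 0.08 to 0.454. Other probe sets of H2-D1 gave -0.60 (adjusted p = 0.251), -1.01 (0.0602) and -0.93 (0.0115). Without wild-type mice 1 and 2 the call for H2-D1 held (adjusted p = 0.0284) and those for B2m (0.0578) and H2-K1 (0.0803) did not.

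Of 28 genes in the interferon and RNA sensing list 8 passed the filter on low values. In line 20b 3 of them fell and none rose, in Mbnl1-null 2 rose (Ifih1 and Ifit2, effects of 1.34 and 0.99) and none fell, and all 8 differences lay below 0, 3 of them called (B2m, H2-D1 and H2-K1, the class I genes above); without wild-type mice 1 and 2, 7 lay below 0 and 1 was called. Markers of macrophages and leukocytes had mean levels of 9.70 to 10.60 in 6-month wild type, 9.75 to 10.28 in line 20b, 8.39 to 9.16 in 3-month wild type and 8.75 to 9.78 in Mbnl1-null, and 12 of 13 differences of these markers lay below 0 with none called. Endothelial marker means, given above, were lower in line 20b without overlap. The part of either cell type in the interferon-type genes was not tested.

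**Figure D4:**
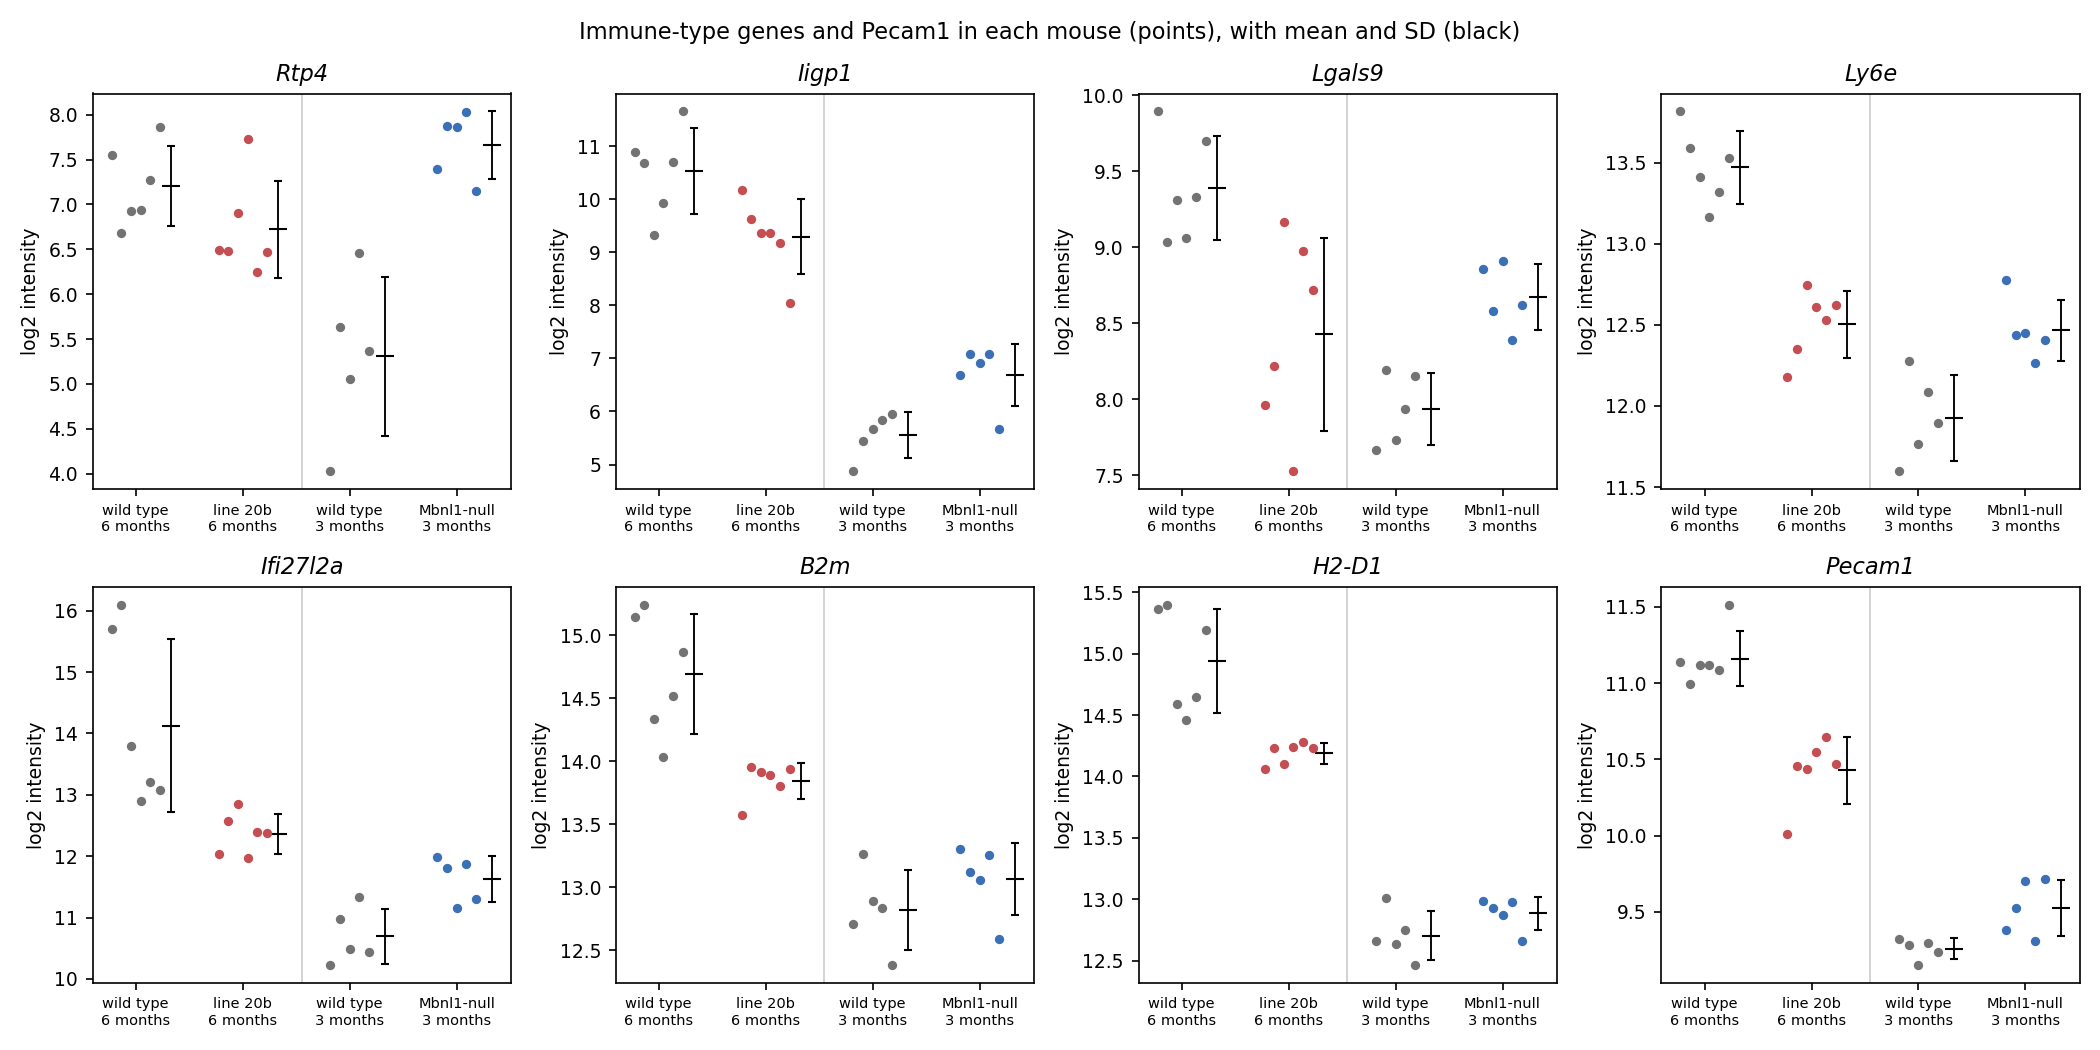
Log2 intensity of 7 interferon-type or class I genes and of Pecam1 in each mouse (points), with mean and SD in black; the vertical line parts 6-month mice (left) from 3-month mice (right). Line 20b lies below its wild type for Ly6e (12.18 to 12.74 against 13.16 to 13.81), and Mbnl1-null lies above its wild type for Rtp4 (7.15 to 8.03 against 4.03 to 6.46).

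Promoter windows were searched for the letters GAAANNGAAA, the core of the element through which interferon-stimulated factors act, on both strands and counting overlapping matches. RefSeq promoter windows (GRCm38.p6, 250 bases before to 50 after a start) held it in 3.44% of 32851 windows, and in at least 1 window of 240 of the 7315 tested genes with an entry (3.28%). It was found in 8 of 84 genes with a called difference below 0 (9.52%) and in 3 of 57 with one above 0 (5.26%). Rtp4, Ifi27l2a, Iigp1 and Ly6e had no entry and were not searched. The 8 were B2m, Gbp2, Gbp7, Ifitm3, Lgals9, Snx10, Srgn and Trim30a. The windows of 3 immune genes whose values are given above show where the letters lie, in capitals, read along the gene's strand; a match is no more than these letters. They lie at chr2:122147437-122147736 (plus strand) for B2m, chr11:78984875-78985174 (minus strand) for Lgals9 and chr7:104465144-104465443 (minus strand) for 1 of the 2 listed starts of Trim30a.
B2m: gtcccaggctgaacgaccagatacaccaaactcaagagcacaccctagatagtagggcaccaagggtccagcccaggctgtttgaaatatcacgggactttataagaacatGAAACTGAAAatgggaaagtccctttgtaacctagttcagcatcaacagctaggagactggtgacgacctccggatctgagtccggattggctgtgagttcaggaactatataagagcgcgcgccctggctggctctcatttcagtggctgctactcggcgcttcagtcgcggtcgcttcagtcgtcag
Lgals9: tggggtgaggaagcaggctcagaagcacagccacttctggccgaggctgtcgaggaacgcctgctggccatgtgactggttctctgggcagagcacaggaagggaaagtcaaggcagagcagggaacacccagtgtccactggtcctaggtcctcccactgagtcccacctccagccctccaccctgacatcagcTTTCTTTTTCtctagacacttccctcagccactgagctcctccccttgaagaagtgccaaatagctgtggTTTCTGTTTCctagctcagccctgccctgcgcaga
Trim30a: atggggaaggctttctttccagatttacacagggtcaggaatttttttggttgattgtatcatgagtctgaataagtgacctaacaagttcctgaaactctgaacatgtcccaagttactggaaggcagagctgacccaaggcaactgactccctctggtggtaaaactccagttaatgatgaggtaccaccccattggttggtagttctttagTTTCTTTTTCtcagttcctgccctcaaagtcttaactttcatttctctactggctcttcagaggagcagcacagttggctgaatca

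Hal was the clearest gene in the other opposite direction. It encodes histidine ammonia-lyase, ran from 7.22 to 8.19 in 6-month wild type and from 7.96 to 8.92 in line 20b, and was 6.01, 7.12, 6.60, 7.31 and 6.68 in 3-month wild type and 5.71, 4.93, 4.44, 4.37 and 2.85 in Mbnl1-null. It rose in line 20b (0.74, SE 0.21) and fell in Mbnl1-null (-2.28, SE 0.45), where 4 of the 5 null mice lie under the intensity of 32, a difference of 3.03 (SE 0.49, adjusted p = 0.00432). Neto2, an auxiliary subunit of glutamate receptors, did so to a smaller extent (0.34 and -0.85; adjusted p = 0.0358, lost in 7 of 22 fits). Acer2, a ceramidase of the Golgi, was lower in line 20b (-0.77, SE 0.28, adjusted p = 0.0454) and rose in Mbnl1-null (1.05, SE 0.12). The difference was -1.81 (adjusted p = 0.00159), and -1.26 (adjusted p = 0.000203) without wild-type mice 1 and 2. Those mice had 8.90 and 9.10, and the other 6-month wild types had 7.11 to 7.64, overlapping line 20b (6.97 to 7.46). The fall of Acer2 in line 20b therefore rests largely on those mice.

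Part of the genes of excitation and calcium handling were called the same way in both models, as 987 of all 8954 genes were. Of 16 tested sarcolemmal channels and pumps 7 rose and 3 fell in line 20b, 4 rose and 2 fell in Mbnl1-null, and all 6 of the latter were called the same way in both, among them Kcnc1 (0.80 and 0.87) and Kcnc4 (1.24 and 0.78). No difference was called. Of 31 genes of calcium handling 9 were called the same way in both, including the junctional proteins Jph1 (-0.29 and -0.30) and Jph2 (-0.31 and -0.44) and the channel subunit Cacng1 (1.09 and 0.93). Camk2b, a calcium-dependent kinase whose transcript MBNL1 splices, rose in both and further in Mbnl1-null (0.56 and 1.14; difference -0.58, adjusted p = 0.0237, and 0.0505 without 3-month wild-type mouse 2).

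Of 21 tested transcripts known to be spliced by MBNL1, 9 rose and 4 fell in line 20b and 2 rose and 4 fell in Mbnl1-null, with 3 called differences: Mbnl1, Camk2b and Smyd1, a muscle methyltransferase (0.57 and -0.16; adjusted p = 0.0258, lost in 4 of 22 fits and, with wild-type mice 1 and 2 left out, at 0.0542). These probe sets measure total signal and not the spliced forms. Of 23 muscleblind, CELF, RBFOX and other splicing factors, Celf2 fell by 0.97 in line 20b and by 0.97 in Mbnl1-null (interval of the difference -0.33 to 0.34), and Rbfox1 by 0.87 and 0.75. The only called difference of that list was Mbnl1 itself.

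Lists of metabolism and stress mostly gave no called difference. Fatty acid genes fell in 15 of 31 and rose in 1 in line 20b, against 5 and 1 in Mbnl1-null, with list medians of -0.30 and -0.14, and called differences for Angptl4 and the fatty acid carrier Cd36 (-0.67 and 0.04; adjusted p = 0.0498, lost in 18 of 22 fits). Another Cd36 probe set fell in both models (-0.59 and -0.37), with no called difference (-0.22, adjusted p = 0.534). A further Cd36 probe set missed the threshold (-0.61, adjusted p = 0.0624). Without wild-type mice 1 and 2, 9 of the 31 fatty acid genes fell in line 20b and no difference was called. Respiratory chain genes (30 tested, medians of 0.00 and 0.00) and fast fibre genes (22 tested, -0.10 and -0.08) had none. Heat shock genes had none either, although 19 of 21 differences lay above 0. Among 17 immediate-early genes 13 differences lay above 0 and none was called; Fos rose by 2.07 in line 20b with an effect of -0.12 in Mbnl1-null (difference 2.19, adjusted p = 0.0856). Of 12 p53 targets 4 were called the same way in both, including the cell cycle inhibitor Cdkn1a (1.501 and 2.19), and Perp (0.06 and 1.20) had a called difference that was lost in 15 of 22 fits and with wild-type mice 1 and 2 left out (adjusted p = 0.143). In the atrophy and autophagy list Cebpd (-0.08 and 1.13) and the lysosomal protease Ctsl (-0.30 and 0.21) had called differences, of which that of Ctsl (-0.51, adjusted p = 0.0129) held in all 22 fits and that of Cebpd was lost in 18 and with wild-type mice 1 and 2 left out (adjusted p = 0.127). Agrn, which clusters receptors at the neuromuscular junction, rose in Mbnl1-null (0.63) with an effect of 0.05 in line 20b, and its called difference was lost in 14 fits and with wild-type mice 1 and 2 left out (adjusted p = 0.15).

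**Figure D5:**
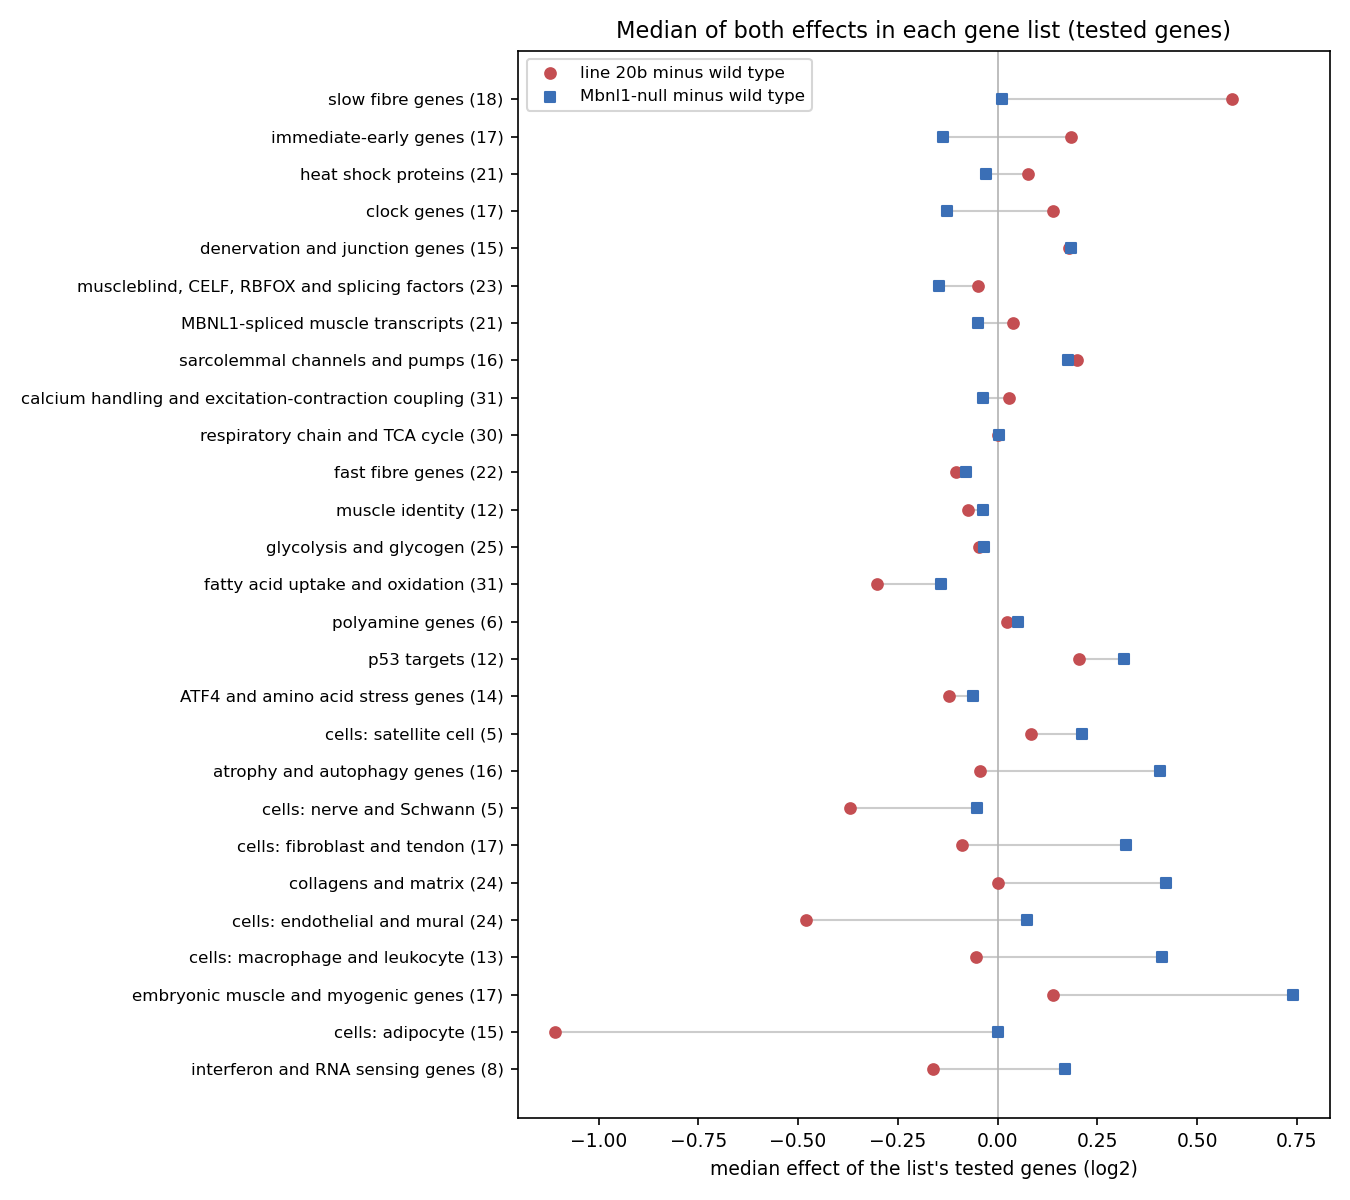
Median line 20b effect (circles) and median Mbnl1-null effect (squares), log2, of the tested genes in each list, ordered by the median difference, with the number tested in brackets. The medians lie close for channels, calcium handling, respiratory chain and fast fibre genes, and apart for adipocyte (-1.11 and 0.00), endothelial (-0.48 and 0.07), embryonic (0.14 and 0.74) and slow fibre genes (0.59 and 0.01).

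Probe sets too dim on one system have no value in these comparisons. In experiment 1 11263 probe sets passed its own filter and not that of experiment 3, and 117 of them changed at least 2-fold in line 20b; the Mbnl1-null effect of those was not measured. The reverse held for 162 probe sets, 6 of them changed at least 2-fold in Mbnl1-null.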

How the data were processed

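Quadriceps RNA came from a Tri-Reagent extraction, and biotin-labelled RNA was hybridised to Affymetrix arrays, per the labels' protocols. The deposited intensity values are on a linear scale and had been summarised by GCRMA, per the submitters' processing notes; its version and settings, and whether the experiments were normalised together, are not given in the sources used here. Values were taken to log2, and each mouse of experiment 1 was joined from its 430A and 430B arrays. Probe sets reaching an intensity of 32 on at least 6 mice of experiment 1 and 5 mice of experiment 3 were kept. Arrays carry no read depth, and the number of mice limits the precision.

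Separate models were made for the experiments in limma 3.58.1 (R 4.3.3, trended empirical Bayes), line 41 sharing the spread estimate of experiment 1. The difference of the effects was tested against the SE of both fits combined, with Benjamini-Hochberg adjustment across the 16067 probe sets; called means an adjusted p under 0.05. Intervals cover 95%. A gene is its brightest probe set with 1 symbol. Named genes were those with the largest called differences of each kind, up to 8, the 8 largest shared effects, up to 3 called members of a list, and Clcn1, Mbnl1, Mbnl2, Sln and Acta1; a group wholly under 32 gives a bound. Other genes were added as examples after their values were seen. The members and lists were chosen with earlier results of these data known.

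On simulated data of 16067 probe sets, true differences of 0.5, 1, 2 and 3 on the log2 scale were called in 38%, 70%, 98% and 100% of 50 each, and 10% of calls were unchanged probe sets. Promoter windows came from RefSeq. Alternatives covered normalisation, filters, thresholds, weights, mouse numbers as a block and leaving out mice.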

Additional observations from a re-analysis of the deposited data

Results flagged for a closer look

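Of 276 groups of mice examined over the named genes, 16 held a mouse far from the others of its group; chance alone gives about 1 in 20. All values are log2 intensities, and no cause was tested. Sln stood out most: Mbnl1-null mouse 1 had 14.367 and the nearest other null mouse 11.019.

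In Mbnl1-null, other mice stood apart for Dkk3 (mouse 2, 5.733), Galnt7 (mouse 5, 7.863), Iigp1 (mouse 5, 5.676), Meg3 (mouse 1, 10.323) and Retnla (mouse 4, 8.202). In 3-month wild type it was mouse 1 for Meg3 (8.785). In 6-month wild type it was mouse 4 for Galnt7 (7.457), mouse 6 for Pecam1 (11.513) and mouse 2 for Tppp3 (9.911).

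In line 20b, mouse 1 stood apart for Dkk3 (7.547) and Pecam1 (10.011), mouse 2 for Acer2 (7.46), Myl4 (9.211) and Samd9l (8.45), and mouse 5 for Nudt6 (10.3).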

How the results depend on the processing

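The number of probe sets with a called difference, 276, moved most with the scaling of the arrays. Quantile normalisation of both experiments onto one distribution gave 646 probe sets and 392 genes, kept 245 of the 276, and moved the share above 0 from 34.4% to 50.8%. A shift of medians gave 131 probe sets and 82 genes, with 1508 probe sets called for Mbnl1-null, and no filter gave 173 and 79, with 1727. Array weights gave 522 and 335. With 1 probe set per gene, 2583 were called for line 20b and 1447 for Mbnl1-null. At an adjusted p of 0.01 the counts were 2774, 1157, 89 for the difference and 57 genes. Without wild-type mice 1 and 2 of experiment 1, 165 probe sets and 106 genes were called, 149 of the 165 among the 276. Leaving out each mouse in turn gave 4096 to 4653 probe sets for line 20b, 1820 to 2708 for Mbnl1-null, 157 to 398 for the difference, and 99 to 266 genes; the lowest came without 3-month wild-type mouse 2 (157) and the highest without Mbnl1-null mouse 5 (398). The replicate block, with mouse number as the block, gave 490 probe sets and 309 genes, with 3323 for Mbnl1-null against 2644; deviations of same-numbered mice correlated at -0.115 to 0.296 in experiment 1 and at 0.0256 to 0.4 in experiment 3, where 4 of 5 pairs exceeded 0.1. No label ties the numbers to a shared animal, litter or day, so the numbers were not taken as pairs. Of 58 named genes with a called difference, 29 kept the call with any single mouse left out. Of these, 24 also kept it under every other setting at 0.05 in which they were tested. The stricter filter, at log2 7, tested only 45 of the 58, so a gene it left out was not checked there. None changed direction. The causes of these shifts were not tested. Values under an intensity of 32 are the limit for dim probe sets.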

Other observations

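Several genes with a called difference that the Mbnl1-null effect led lie on the chromosome of Mbnl1 itself. Of 62 such genes with a RefSeq position 9 do (14.5%): Tpm3, Pi4kb, Nudt6, Postn, Ciart, Adamtsl4, Rnf13, Kpna4 and Gon4l. The share was 9.47% among the 95 genes that the line 20b effect led, 0 of 14 among genes called in opposite directions, and 5.18% over 8945 genes. It was 4.92% among 955 genes called the same way in both effects with no called difference. These are counts with no test.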
